A study of Mus musculus with 16 samples.

Results

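Heat shock and endoplasmic reticulum (ER) stress genes were examined in sperm RNA of male mice: 35 genes for cytosolic, mitochondrial and ER chaperones and for the sensors and transcription factors that control them. They were chosen by name, and all 35 were found among the 24062 gene rows of the deposited count table. Libraries were compared by diet, 8 of males given a high-fat, high-calorie diet (HFD) and 8 of males given its control diet (CD). The diets began at 3 weeks of age and lasted 9 weeks, and motile sperm were then taken for RNA, of which 2 ng was amplified to cDNA and 250 ng of cDNA made into a library. The labels give no strain, genotype or further treatment, and since the design text counts 8 mice per diet, each library was taken as 1 animal. The question is how the sperm transcriptome differs between the diets.

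Chaperones bind unfolded proteins and use ATP to help them fold. The HSP70 and HSP90 families do this in the cytosol, with HSP40 proteins as helpers, and heat shock factor 1 (Hsf1) switches on the stress-inducible forms. In the ER, the HSP70 protein BiP (Hspa5), the HSP90 protein GRP94 (Hsp90b1), lectin chaperones and disulphide isomerases fold secreted proteins. The unfolded protein response (UPR) raises these folding proteins through sensors that include Ern1 and Atf6 and through the transcription factor Xbp1. Atf4 and Ddit3 are further transcription factors of the UPR. The testis makes its own HSP70 forms: in mice Hspa2 is needed for male meiosis, and Hspa1l is made in spermatids. Mature sperm carry RNA left from spermatogenesis and make almost none, while the epididymal epithelium in which they mature is a strongly secreting tissue.

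Heat shock factors and the UPR factors act on short promoter elements, and examples are shown for genes whose levels are described below. Within the 250 bases before each gene's RefSeq start site, which can differ from the GENCODE start given below, RefSeq promoters on GRCm38.p6 were searched on both strands for the heat shock element pair GAANNTTC and for the ER stress element, CCAAT followed after 9 bases by CCACG. Of the 35 genes, 28 had a promoter in that table. The ER stress element was found in 7 of these 28, Hspa5, Hsp90b1, Calr, Canx, Pdia6, Dnajc3 and Creld2, and in 0.113% of all 32851 promoter windows. The heat shock pair was found in 5 of the 28, Hspa1a, Hspa1b, Hspb1, Hspd1 and Hspe1, and in 6.69% of all windows. A match is a description of letters and does not show that a factor binds there. In the lines that follow, capitals mark the element, printed 5′ to 3′ on the strand on which it reads in the orientation given above, and the strand follows the coordinates.
Hspa5, chr2:34772020-34772048, plus strand: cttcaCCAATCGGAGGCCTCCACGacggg
Hsp90b1, chr10:86705633-86705661, minus strand: caagcCCAATCGCAAGGAGCCACGcttcg
Hsp90b1, chr10:86705528-86705556, plus strand: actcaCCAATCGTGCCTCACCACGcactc
Calr, chr8:84847070-84847098, plus strand: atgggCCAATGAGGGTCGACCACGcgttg
Canx, chr11:50325795-50325823, minus strand: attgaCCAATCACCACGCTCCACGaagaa
Pdia6, chr12:17266486-17266514, plus strand: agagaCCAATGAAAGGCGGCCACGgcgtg
Dnajc3, chr14:118937822-118937850, plus strand: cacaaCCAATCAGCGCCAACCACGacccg
Creld2, chr15:88819515-88819543, minus strand: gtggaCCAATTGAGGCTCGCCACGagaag
Hspa1a, chr17:34972242-34972271, minus strand: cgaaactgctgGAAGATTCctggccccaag
Hspa1b, chr17:34959324-34959353, minus strand: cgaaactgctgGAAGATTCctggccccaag
Hspd1, chr1:55088053-55088082, minus strand: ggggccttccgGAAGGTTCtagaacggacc

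The stretches of Hspa1a and Hspa1b carry the same letters, and the longest open reading frames of their annotated transcripts were 99.4% identical, with 1 run of 638 identical bases. Reads that fit both copies could not be assigned to either gene alone, so their counts are uncertain. Hspd1 and Hspe1 lie head to head on chromosome 1, their annotated first exons overlap, and the heat shock pair above lies in the window of both. Hspa2 and the constitutive Hspa8 were 73.2% identical, with no shared run over 20 bases. Hspa1l and Hspa1a were 82.7% identical with a shared run of 233 bases, so reads lying within that run cannot be assigned to either gene, and the level of Hspa1l carries that uncertainty too.

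Gene counts per library were 1882555 to 5153818 in HFD and 3172721 to 7783981 in CD, and the lowest was HFD 4. HFD 4 and HFD 8 stood apart from the other 14 libraries in read assignment and in germ cell and epididymal transcripts. Reads assigned to a gene made up 8.02% and 9.16% of their reads, against 10.3% to 20.1% in the other 14. Reads in no annotated gene made up 76.1% and 75.0%, against 58.0% to 67.9%. Levels are given as CPM, read counts scaled to a common library size with edgeR's correction for composition (TMM). The summed CPM of 40 late spermatid markers was 32499 for HFD 4 and 63759 for HFD 8, against 2732 to 14033 for the other 14 libraries. For 25 meiotic markers the sums were 5067, 3852 and 237 to 1209 CPM, and for 36 epididymal markers 17729, 13569 and 42496 to 106631 CPM. Of these markers, 33 of 40, 16 of 25 and 1 of 36 were higher in both libraries than in any of the other 14, and 20 of 36 epididymal markers were lower. Of all 13149 genes tested, 21.8% were higher and 22.6% lower in this way. Every one of these markers had a read in at least 1 library. HFD 4 had no read of Dmc1, Spo11, Mei1, Adam28, Lcn9, Lcn10, Cst11, Cst12 or Cldn2, and HFD 8 none of Mei1, Adam28, Lcn8 or Lcn9. In all 14 other libraries the epididymal sum lay above the late spermatid sum, although the labels name the samples as spermatozoa. The 19 leukocyte markers summed to 1742 and 2172 CPM for HFD 4 and HFD 8, against 2086 to 5530 CPM elsewhere, so HFD 4 was lowest. Cd52, which the epididymis also makes, had the highest mean of these markers, and without it the sums were 1125 and 1547 CPM, against 244 to 1081 CPM. Of these 18 markers, 4 were above all other libraries in both, near the share of all genes tested, and 0 were below. C1qa was at 0 in HFD 4. The 16 markers of stroma, endothelium and muscle gave 1535, 1269 and 366 to 1074 CPM, with 5 of 16 above and 2 below all other libraries in both, and none at 0 in HFD 4 or HFD 8. The part of these cell markers and of read assignment in the results below was not tested. In bulk RNA, fewer cells of a type and less RNA per cell cannot be told apart.

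No heat shock or ER stress gene passed the test for a difference between diets. With edgeR's quasi-likelihood test over 13149 genes, all 35 genes passed the expression filter and 0 of 35 passed an adjusted p of 0.05, where 0% of all genes tested did. The smallest adjusted p among the 35 was 0.434. At an unadjusted p under 0.05 there were 2, Hspa2 and Hspa4l, both higher in HFD, against 11.3% of all genes tested, split into 10.2% with a higher and 1.1% with a lower level in HFD. DESeq2 and limma-voom also put 0 of the 35 past the threshold, with 2 and 1 at an unadjusted p under 0.05. In limma-voom, which weights each library by its quality, HFD 4 and HFD 8 had weights of 0.150 and 0.148. The other 14 libraries had 0.706 to 2.30, so limma-voom leaned little on HFD 4 and HFD 8. The summed level of the 35 genes averaged 10983 CPM ± 1615 over HFD libraries and 11819 ± 2244 over CD libraries (SD, n = 8 each). Of the 35 log2 fold changes, HFD over CD, 12 were positive and 23 negative, with a median of -0.23, and over all genes tested 50.4% were negative with a median near 0. Without HFD 4 and HFD 8, 15 were positive and 20 negative, with a median of -0.0053, and 0 passed in edgeR. No gene of the 35 had HFD and CD values that did not overlap, and among all genes tested 0.00761% did.

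**Figure D1:**
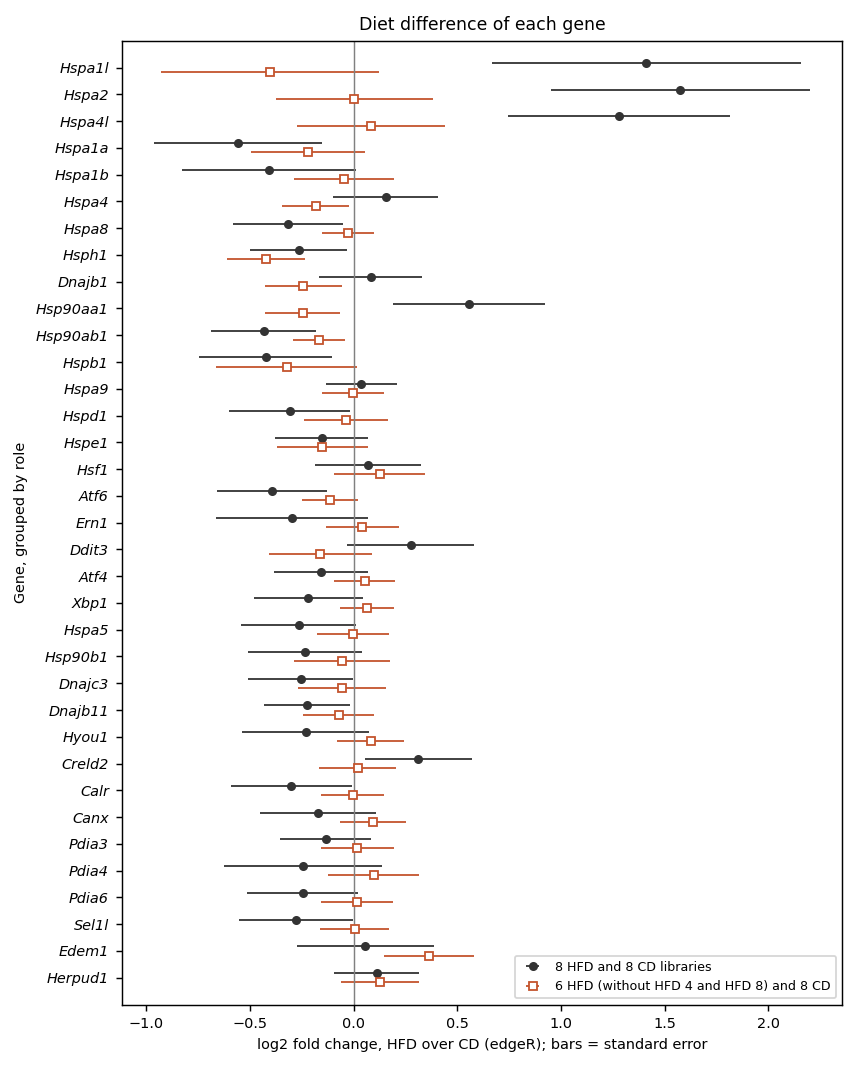
Log2 fold change of each of the 35 genes, HFD over CD, from edgeR with its standard error, from all 16 libraries (filled circles) and without HFD 4 and HFD 8 (open squares). Hspa1l, Hspa2 and Hspa4l lie at 1.41, 1.57 and 1.28 with all libraries and at -0.40, 0.0030 and 0.08 without these 2, and no gene passed the threshold in either comparison.

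The germ cell forms had the largest log2 fold changes of the 35 with all 16 libraries, and their high values were those of HFD 4 and HFD 8. Hspa2 (GRCm38 chromosome 12, 76404176 to 76406938) ran from 57.7 to 1918 CPM in HFD with a median of 188, and from 54.1 to 282 CPM in CD with a median of 133. The high values were the 1918 CPM of HFD 4 and the 864 CPM of HFD 8, and the other 6 HFD libraries lay within the CD range. The log2 fold change was 1.57 ± 0.62 (SE), with an edgeR adjusted p of 0.434, and 0.0030 ± 0.38 without the 2 libraries. It was 0.24 with limma-voom. Hspa1l (chromosome 17, 34972703 to 34979285) ran from 10.7 to 543 CPM in HFD with a median of 34.0, and from 12.04 to 100.1 CPM in CD with a median of 33.5. HFD 8 alone held 543 CPM, HFD 4 112 CPM, and CD 8 was next with 100.1 CPM. Its log2 fold change was 1.41 ± 0.75 (SE), with an edgeR adjusted p of 0.486, and without HFD 8 alone it was 0.07. With all 16 libraries it was 0.10 in DESeq2 and -0.15 in limma-voom, which gave HFD 4 and HFD 8 low weights, so its size depended on the method. Hspa4l, an HSP110 form that exchanges the nucleotide of HSP70 and is abundant in testis, ran from 74.7 to 1399 CPM in HFD with a median of 263, and from 92.9 to 402 CPM in CD with a median of 196. HFD 4 and HFD 8 had 1319 and 1399 CPM, and the next highest library, CD 5, had 402 CPM. Its log2 fold change was 1.28 ± 0.53 (SE), with an edgeR adjusted p of 0.434, and 0.08 ± 0.36 without the 2 libraries and 0.32 with limma-voom.

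The constitutive and the stress-inducible cytosolic HSP70 genes lay below all 14 other libraries in HFD 4 and HFD 8. Hspa8, the constitutive cytosolic HSP70, ran from 78.8 to 333 CPM in HFD with a median of 276, and from 210 to 347 CPM in CD with a median of 298. Its lowest values were the 95.2 CPM of HFD 4 and the 78.8 CPM of HFD 8. The log2 fold change was -0.32 ± 0.27 (SE), edgeR adjusted p = 0.695. Hspa1a had 5.36 CPM in HFD 4 and 2.44 in HFD 8, from 9 and 7 reads, against 7.36 to 41.8 CPM in the other 14 libraries. Hspa1b had 2.98 and 2.09 CPM, from 5 and 6 reads, against 13.2 to 34.7 CPM. By diet, Hspa1a ran from 2.44 to 31.3 CPM in HFD with a median of 18.2, and from 16.6 to 41.8 CPM in CD with a median of 24.9, with a log2 fold change of -0.56 ± 0.40 (SE) and an edgeR adjusted p of 0.641. With counts this low, and with reads shared between the copies, a difference between them was not assessed.

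The 2 cytosolic HSP90 genes stood on opposite sides in HFD 4 and HFD 8. Hsp90aa1, the inducible HSP90 alpha, which male mice need for spermatogenesis, ran from 143 to 946 CPM in HFD with a median of 238, and from 175 to 369 CPM in CD with a median of 248. Its highest values were the 946 CPM of HFD 4 and the 772 CPM of HFD 8. Hsp90ab1, the constitutive HSP90 beta, ran from 479 to 1633 CPM in HFD with a median of 1236, and from 1284 to 1858 CPM in CD with a median of 1495, and its lowest values were the 479 CPM of HFD 4 and the 486 CPM of HFD 8. The summed level of the pair was 1425 CPM in HFD 4 and 1258 CPM in HFD 8. The other 14 libraries ran from 1274 to 2125 CPM with a median of 1703, so HFD 8 was the lowest library. Per base of annotated exon, Hsp90aa1 had 1.51 and 1.21 times the reads of Hsp90ab1 in HFD 4 and HFD 8, and 0.0668 to 0.185 times in the other 14 libraries. Neither gene passed the test between diets: the log2 fold changes were 0.56 ± 0.37 and -0.43 ± 0.25 (SE), with edgeR adjusted p of 0.601 and 0.537. Without HFD 4 and HFD 8 the value of Hsp90aa1 was -0.25 ± 0.18.

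**Figure D2:**
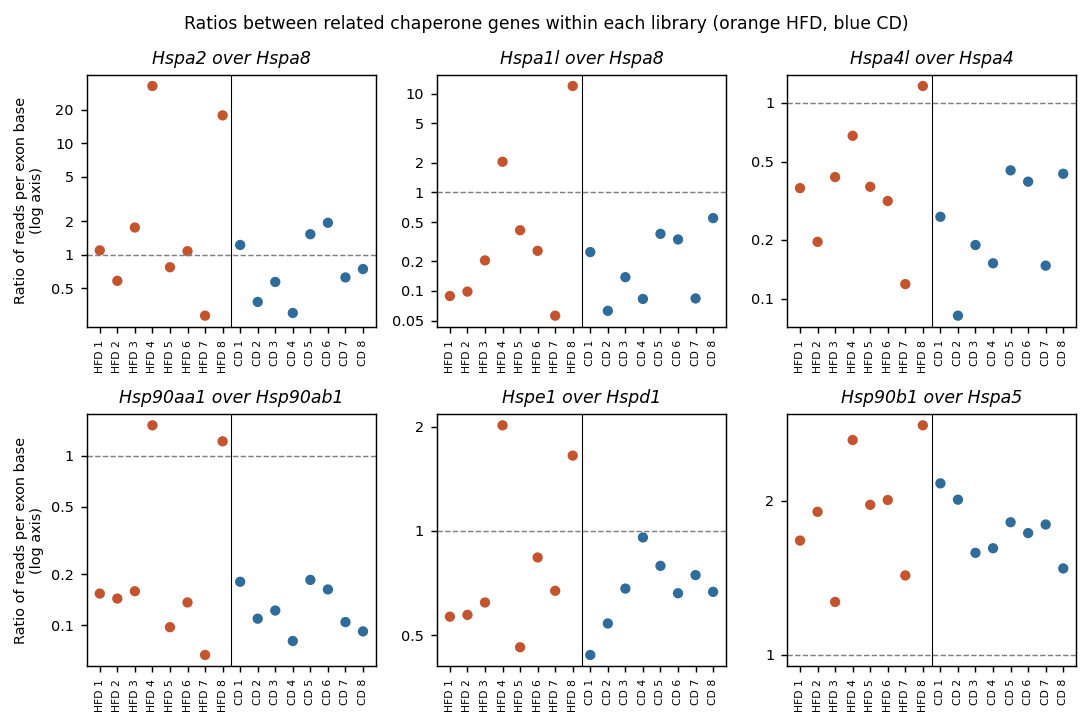
Ratio of reads per base of annotated exon between related genes in each library, on log axes, with HFD libraries left of the line and CD libraries right of it; the dashed line marks a ratio of 1. HFD 4 and HFD 8 hold the highest ratios in all 6 panels, for example 32.8 and 17.8 for Hspa2 over Hspa8, against 0.282 to 1.93 in the other 14 libraries.

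Within a library, ratios between related genes do not depend on library size. Hspa2 had 32.8 and 17.8 times the reads of Hspa8 per exon base in HFD 4 and HFD 8, and 0.282 to 1.93 times in the other 14, of which 6 were above 1. For Hspa1l over Hspa8 the ratios were 2.04 and 11.99, against 0.0561 to 0.548. For Hspa4l over Hspa4, its counterpart in other cells, they were 0.680 and 1.22, against 0.0821 to 0.453. HFD 7 was the lowest of the 14 for Hspa2 and Hspa1l, and CD 2 for Hspa4l. The exon length of Hspa4l includes long alternative ends, so its ratio is a lower estimate if those ends are not used here. Among the 14 libraries Hspa1l varied most of the 35 genes, 9.34 times as high in the highest as in the lowest. Hspa1a followed at 5.68 times, then the germ cell forms Hspa4l at 5.38 times and Hspa2 at 5.21 times. The other 31 genes varied by 1.604 times for Xbp1 to 3.68 times for Pdia4.

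The remaining heat shock genes were mixed. Dnajb1, the HSP40 that delivers clients to HSP70, had 339 CPM in HFD 4 and 315 in HFD 8, against 121 to 255 CPM elsewhere. Hspa4 had 909 and 537 CPM against 283 to 610 CPM, and the HSP110 gene Hsph1 93.4 and 37.3 CPM against 31.8 to 83.9 CPM. The mitochondrial chaperones differed among themselves: Hspd1 (HSP60) had 57.1 and 47.8 CPM against 96.3 to 276 CPM, its partner Hspe1 (HSP10) 64.3 and 43.9 CPM against 34.9 to 83.2 CPM, and Hspa9 (mortalin) 161 and 197 CPM against 116 to 231 CPM. Hspe1 thus had 2.02 and 1.65 times the reads of Hspd1 per exon base in HFD 4 and HFD 8, and 0.438 to 0.957 times in the other 14. GENCODE lists 6 pseudogenes named for Hspe1 and 5 for Hspd1. Reads without a unique alignment were set aside in the deposited counts, 15.8% to 30.7% of reads per library. Reads that fit a gene and its pseudogene equally were thus not counted for the gene, and how many there were is not given. The small heat shock gene Hspb1 ran from 3.84 to 10.3 CPM in HFD with a median of 5.88, and from 4.53 to 12.8 CPM in CD with a median of 8.199, with a log2 fold change of -0.42 ± 0.32 (SE) and an edgeR adjusted p of 0.654. Hsf1 ran from 7.67 to 28.0 CPM in HFD with a median of 19.5, and from 12.8 to 23.5 CPM in CD with a median of 20.6. HFD 4 was the highest and HFD 8 the lowest library for Hsf1, and its log2 fold change was 0.07 ± 0.26 (SE), edgeR adjusted p = 0.938.

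Without HFD 4 and HFD 8, the log2 fold change was negative for 13 of the 16 heat shock genes and positive for 3, and their median was -0.16. Of the 13149 genes tested with all libraries, 6667 were negative in that comparison, with a median near 0. Hsph1 was the 1 gene of the 35 at an unadjusted p under 0.05 in that comparison, with a log2 fold change of -0.42 ± 0.19 (SE), an unadjusted p of 0.0362 and an edgeR adjusted p of 0.9997, where 2.17% of all genes tested had an unadjusted p under 0.05. Its levels had run from 31.8 to 93.4 CPM in HFD with a median of 42.9, and from 41.1 to 83.9 CPM in CD with a median of 54.8, and the groups overlapped.

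**Figure D3:**
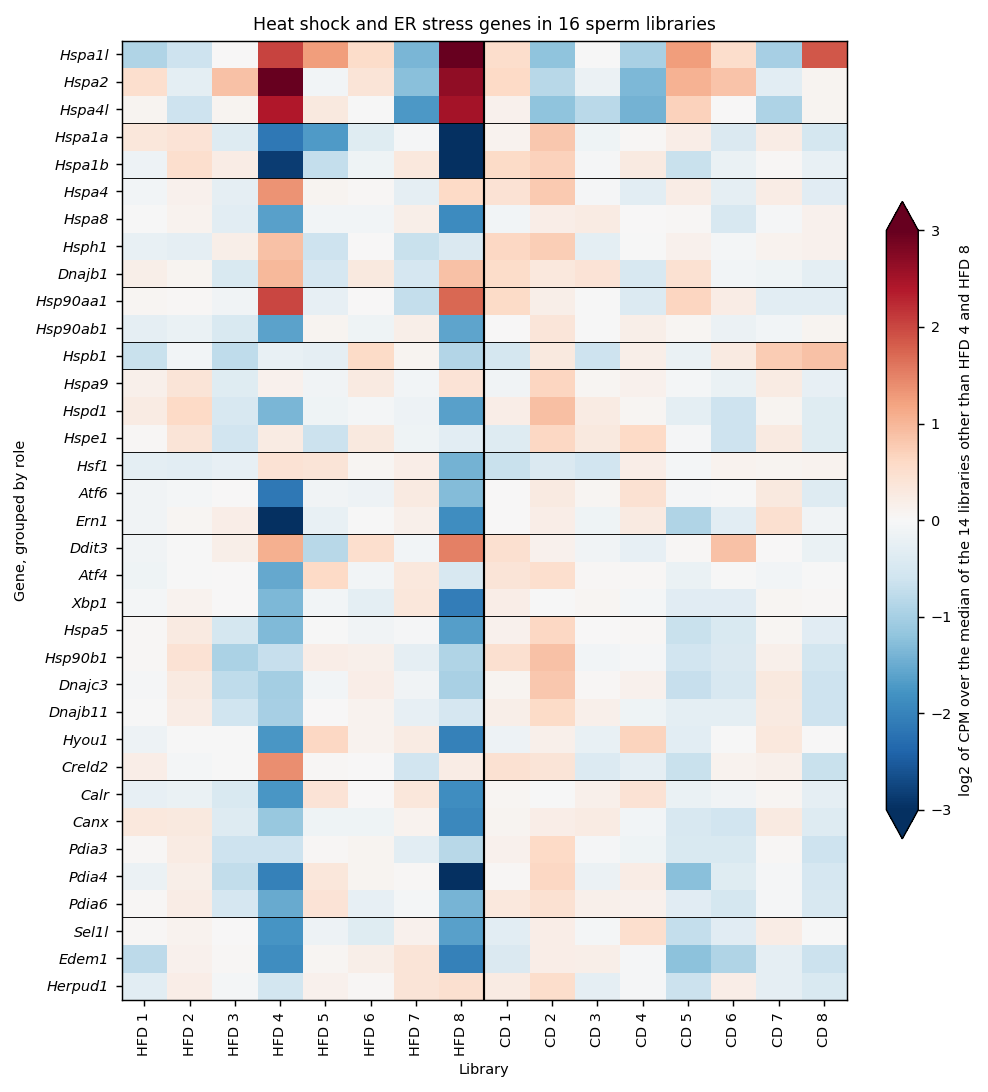
Level of the 35 genes in each library as log2 of CPM over the median of the 14 libraries other than HFD 4 and HFD 8, grouped by role, with HFD libraries left of the line; colours end at 3 in either direction. In HFD 4 and HFD 8 the germ cell forms at the top are high, and Hsp90aa1 and Dnajb1 are high. In both, 13 of the 19 ER and UPR genes are below all other libraries, where 22.6% of all genes tested are.

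Of the 5 genes with the highest mean level per kilobase of exon, 4 were ER chaperones and 1, Hsp90ab1, was cytosolic. Per kilobase of exon, Hsp90b1 averaged 444 CPM ± 157 over HFD libraries and 522 ± 200.1 over CD libraries (SD, n = 8 each), Hsp90ab1 of the cytosol 375 ± 145 and 506 ± 59.0, the lectin chaperone calreticulin (Calr) 276 ± 130.2 and 340 ± 53.6, Hspa5 241 ± 93.6 and 290.2 ± 83.9, and the lectin chaperone calnexin (Canx) 224 ± 91.6 and 253 ± 57.4. The means of neighbours in this order differed by less than their spread over libraries in both diets, apart from Hsp90ab1 and Calr in CD. That spread does not show whether genes read in the same libraries differ. Compared within each library, Hsp90ab1 lay above Calr per kilobase in every library of both diets. The order of the other neighbours within libraries was not assessed. The sum of the 19 ER and UPR genes averaged 7086 CPM ± 2393 over HFD libraries and 8256 ± 2043 over CD libraries. HFD 4 and HFD 8 had sums of 3987 and 3385 CPM, and the other 14 libraries 5733 to 11874 CPM. In both HFD 4 and HFD 8, 13 of the 19 lay below all 14 other libraries and 1, Ddit3, above them. Of all genes tested, 22.6% lay below and 21.8% above in this way. Among the 16 heat shock genes, 5 lay below and 5 above.

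Hspa5 (chromosome 2, 34771970 to 34777547) ran from 400.3 to 1506 CPM in HFD with a median of 1193, and from 786 to 1929 CPM in CD with a median of 1272. HFD 4 and HFD 8 were its lowest libraries, at 496 and 400.3 CPM, and CD 2 its highest. Its log2 fold change was -0.27 ± 0.28 (SE), edgeR adjusted p = 0.754, and -0.0041 ± 0.17 without the 2 libraries. Hsp90b1 ran from 1040 to 2730 CPM in HFD with a median of 1853, and from 1360 to 3693 CPM in CD with a median of 1938. Here HFD 3 was lowest, and HFD 4 and HFD 8 followed with 1240 and 1070 CPM, so Hsp90b1 did not stand apart in them as Hspa5 did. The ratio of Hsp90b1 to Hspa5 per exon base was 2.62 and 2.80 in HFD 4 and HFD 8, and 1.27 to 2.16 elsewhere. Calr ran from 264 to 1269 CPM in HFD with a median of 824, and from 798 to 1287 CPM in CD with a median of 976. Canx ran from 324 to 1528 CPM in HFD with a median of 1126, and from 833 to 1495 CPM in CD with a median of 1233. Both were lowest in HFD 4 and HFD 8, and the edgeR adjusted p was 0.738 for Calr and 0.842 for Canx.

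Most of the disulphide isomerases and other ER folding and degradation genes were also low in HFD 4 and HFD 8, to different degrees. The median of the other 14 libraries was 4.05 and 8.22 times the level of HFD 4 and HFD 8 for Pdia4, 2.84 and 2.62 times for Pdia6, and 1.53 and 1.77 times for Pdia3, which works on glycoproteins with Calr and Canx. Pdia3 was lowest in HFD 8, while HFD 4, at 389 CPM, lay above CD 8 and HFD 3. It was 3.34 and 4.06 times for Hyou1, which exchanges the nucleotide of BiP, and 2.04 and 1.95 times for Dnajc3, an HSP40 of the ER. For Sel1l, an adaptor of the ligase complex of ER-associated degradation, it was 3.41 and 3.12 times, and for Edem1, which hands over misfolded glycoproteins, 3.62 and 4.08 times. Creld2, Herpud1 and Dnajb11 were, like Pdia3, not below all other libraries in both. Creld2, a secreted ER stress protein, was highest in HFD 4 at 258 CPM, with HFD 8 at 116 CPM and the others at 62.6 to 135 CPM. Herpud1, which acts in degradation from the ER, had 33.3 and 68.0 CPM against 31.2 to 70.1 CPM, and the HSP40 gene Dnajb11 88.7 and 125 CPM against 115 to 263 CPM. The 7 genes with an ER stress element in the searched window thus included 5 that were below all other libraries in HFD 4 and HFD 8, Hspa5, Calr, Canx, Pdia6 and Dnajc3, and 2 that were not, Hsp90b1 and Creld2. Of all 19 ER and UPR genes 13 were below in this way, so 5 of 7 was near the share of the whole list. A link between the element and the level was not tested.

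**Figure D4:**
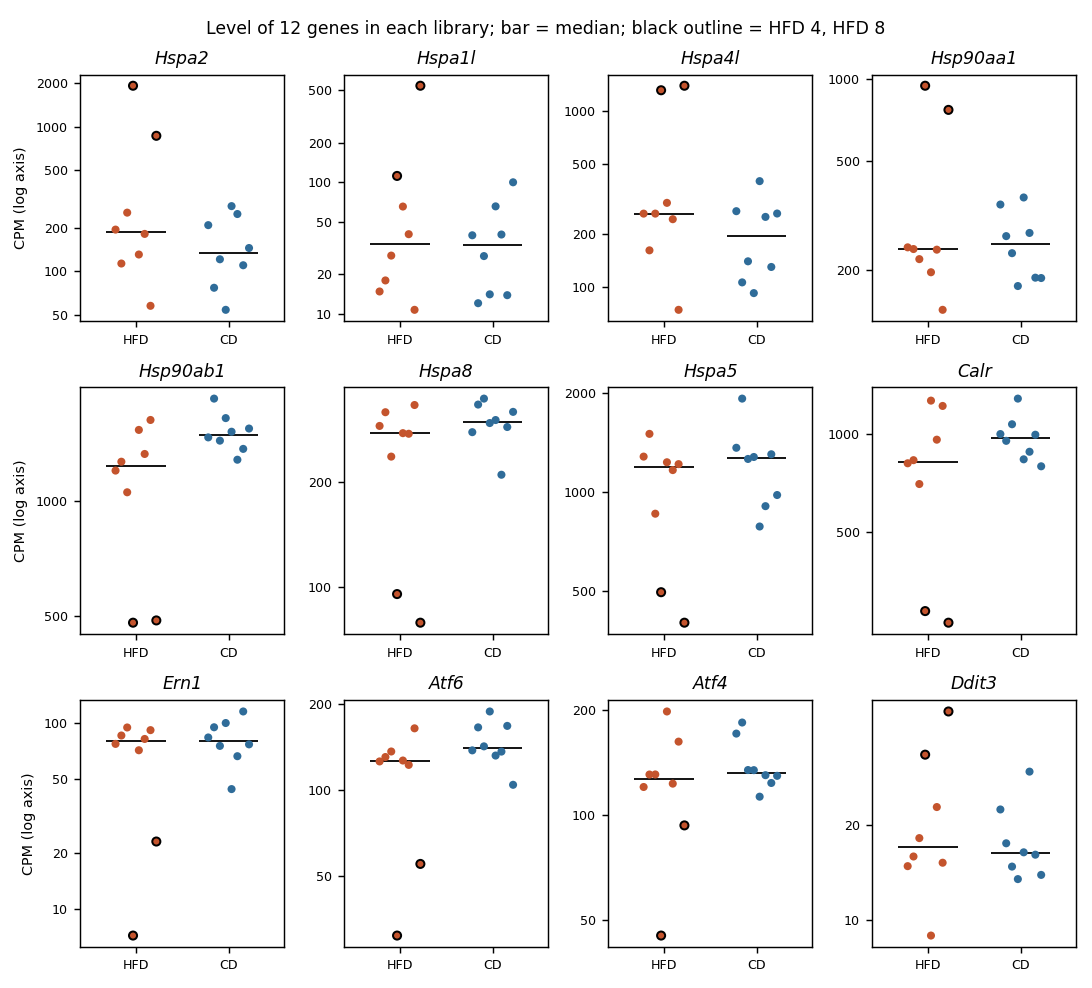
Level of 12 genes in CPM on log axes, 1 point per library, with HFD left of CD and a bar at each median. HFD 4 and HFD 8 (black outlines) are the highest HFD libraries for Hspa2, Hspa1l, Hspa4l, Hsp90aa1 and Ddit3 and the lowest for the other 7 genes, and the medians of the diets lie close together.

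The UPR sensors and factors were at moderate levels. Ern1, which encodes the sensor IRE1, ran from 7.14 to 95.1 CPM in HFD with a median of 80.0, and from 44.2 to 116 CPM in CD with a median of 80.5. HFD 4, with 12 reads, and HFD 8 were lowest at 7.14 and 23.0 CPM. Atf6, the sensor that is cut in the Golgi to give a transcription factor, ran from 30.9 to 164 CPM in HFD with a median of 126, and from 104 to 188 CPM in CD with a median of 140, and its log2 fold change was -0.39 ± 0.27 (SE), edgeR adjusted p = 0.607. Xbp1, whose RNA is spliced by IRE1, ran from 32.8 to 173 CPM in HFD with a median of 131, and from 108 to 157 CPM in CD with a median of 139. Spliced and unspliced Xbp1 are not separated in counts per gene. Atf4, which is controlled mainly at translation, ran from 45.2 to 198 CPM in HFD with a median of 127, and from 113 to 184 CPM in CD with a median of 132. Ddit3, which encodes the late factor CHOP, went the other way, at 33.3 CPM in HFD 4 and 45.7 in HFD 8, against 8.91 to 29.5 CPM elsewhere. By diet, Ddit3 ran from 8.91 to 45.7 CPM in HFD with a median of 16.99, and from 13.4 to 29.5 CPM in CD with a median of 16.2. The 5 genes had edgeR adjusted p of 0.607 to 0.823, and without HFD 4 and HFD 8 their log2 fold changes lay between -0.16 for Ddit3 and 0.06 for Xbp1.

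Among the 14 other libraries, the extreme values of the ER genes lay in a few libraries. CD 2 held the highest value of all 16 for 8 of the 19 ER and UPR genes and 6 of the 16 heat shock genes. It was the most deeply sequenced library, with the highest epididymal marker sum, 106631 CPM, and the lowest late spermatid sum, 2732 CPM. CD 5 held the lowest of the 14 for 9 of the 19, and its epididymal sum was 47453 CPM, where the 14 ran from 42496 to 106631 CPM. The part of depth and of cell content in these values was not tested. The log2 fold changes of the 19 ER and UPR genes without HFD 4 and HFD 8 were positive for 12 and negative for 7, with a median of 0.02. Edem1 was farthest from 0 at 0.36 ± 0.22 (SE), edgeR adjusted p = 0.9997.

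Other genes of these pathways were read from lists chosen by function. Among 49 tested cytosolic and mitochondrial chaperone genes the log2 fold change was positive for 34 and negative for 15, the median was 0.18, and 0 passed. The smallest p belonged to the HSP40 gene Dnaja4, with 75.1 CPM ± 81.0 over HFD libraries and 27.7 ± 10.7 over CD libraries (SD, n = 8 each), to Hsf2, a heat shock factor with a role in spermatogenesis, with 46.4 ± 55.4 and 21.0 ± 4.08, and to Dnajb6, with 84.6 ± 65.5 and 48.6 ± 7.77. All 3 had an edgeR adjusted p of 0.434, and log2 fold changes of 0.21, 0.29 and 0.04 without HFD 4 and HFD 8. Of 58 tested ER stress and folding genes, 22 were positive and 36 negative, with a median of -0.08, and 0 passed. Here Ube2j1, a ubiquitin-conjugating enzyme of the ER that mouse spermatids need, averaged 288 CPM ± 226 over HFD libraries and 169 ± 29.8 over CD libraries, Erp29 had 94.9 ± 19.9 and 122 ± 26.8, and Sdf2 had 42.4 ± 16.96 and 56.1 ± 16.0. Without the 2 libraries the medians of these lists were -0.03 and 0.08. The edgeR adjusted p of Ube2j1, Erp29 and Sdf2 was 0.434 to 0.594 with all 16 libraries and 0.9997 without the 2. Their log2 fold changes without the 2 libraries were 0.07, -0.23 and -0.16.

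Testis forms of chaperones ran with Hspa2 and Hspa1l. Of 16 listed, 15 were tested, the log2 fold change was positive for all 15, the median was 1.70, and 0 passed in edgeR. Of all 13149 genes tested, 6521 were positive. In HFD 4 and HFD 8, 15 of the 16 lay above all other libraries, where 21.8% of all genes tested did. The list summed to 5375 and 4361 CPM in them, against 279 to 1133 CPM elsewhere. Clgn, a calnexin homolog needed for sperm to bind the egg, averaged 299 CPM ± 369 over HFD libraries and 141 ± 73.8 over CD libraries (SD, n = 8 each), the small heat shock gene Hspb9 236 ± 283 and 104 ± 77.6, and the HSP40 gene Dnajb3 170.2 ± 210.1 and 48.2 ± 26.6. Calr3, a calreticulin of germ cells, had 23.1 ± 29.3 and 3.97 ± 2.48, Creb3l4 94.5 ± 128 and 25.7 ± 12.1, and the heat shock factor gene Hsfy2 64.8 ± 97.7 and 16.4 ± 10.4. The edgeR adjusted p of these 6 genes was 0.434 to 0.487, and the median of the list without HFD 4 and HFD 8 was 0.07.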

How the data were processed

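Total RNA of motile mouse sperm was sequenced in 16 libraries, 8 per diet, grouped by the diet label. The authors deposited 1 table of unnormalised read counts by gene symbol, which has 24062 gene rows. Its 5 summary rows, for reads not assigned to a gene, were left out of the tests and used only for read shares. The mm10 build, DESeq2 1.0.19, HTSeq 1.0.0 and STAR are named, per the submitters' processing notes. No annotation or strand setting was given in the sources used here. Reads that fit more than 1 overlapping gene were set aside as ambiguous, 0.0474% to 0.0907% of reads per library. Without the annotation it is not known whether reads of the 3 snoRNA genes in Hspa8 were set aside or counted for Hspa8. No molecular identifiers are named, so amplified copies count as reads.

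Counts were filtered with filterByExpr, scaled by TMM and tested with edgeR 4.0.16 (quasi-likelihood, Benjamini-Hochberg over 13149 genes, threshold 0.05, R 4.3.3), with no covariate. DESeq2 1.42.0, limma 3.58.1 (voom with quality weights), RLE factors, no filter, leaving out Rn45s, a replicate block and each library left out in turn were alternatives, and leaving out HFD 4 and HFD 8 together was chosen after seeing the data. Levels are CPM, divided by GENCODE M21 exon length where compared between genes. On simulated data for HFD against CD with 13149 genes, 6 of 50 genes with a 2-fold change were called, as were 40 of 50 at 4-fold, 44 of 50 at 8-fold and 49 of 50 at 16-fold, and 5 calls were false. The simulated libraries were drawn independently around the mean of their diet, without the joint shift that HFD 4 and HFD 8 show. These shares therefore do not say how many true changes would be found in the real libraries. Same-diet libraries all differed beyond counting noise. Promoters came from RefSeq, GRCm38.p6. The genes and lists were chosen with earlier results of these data known. All 35 genes are accounted for, and values by library group are given for the germ cell forms, the 8 with the smallest p, the 5 highest per kilobase, the UPR sensors and factors and Hsf1. From each other pathway list, the 3 genes with the smallest p and, for testis forms, also the 3 most abundant are given.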

Additional observations from a re-analysis of the deposited data

Results flagged for a closer look

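In 7 of 70 gene and diet groups of 8 libraries, 1 library lay apart from the rest by Dixon's test. Chance gives this in about 1 in 20 groups of normally distributed values. The CPM were not transformed and the groups share libraries, so 7 of 70 cannot be set against that rate. HFD 4 was the outlying library for Hspa2, at 1918 CPM with the next HFD library at 864, for Hspa4, at 909 CPM with the next at 537, for Hsph1, at 93.4 CPM with the next at 57.1, and for Creld2, at 258 CPM with the next at 116. HFD 8 was the outlying library for Hspa1l, at 543 CPM with the next at 112. CD 2, the deepest library and the one with the highest epididymal marker sum, was the outlying library for Hspa1a, at 41.8 CPM with the next CD library at 27.7. It was also the outlying library for Hspd1, at 276 CPM with the next at 174.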

How the results depend on the processing

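The count of genes past the threshold was 0 in edgeR and 1 with DESeq2, and none of the 35 genes passed under any of the 23 alternatives. At an unadjusted p under 0.05, edgeR gave 1482 genes with all libraries, 292 without HFD 4 and HFD 8, 516 without HFD 4 alone, 689 without HFD 8 alone and 488 with limma-voom. The cause was not tested. Of 805 recomputed log2 fold changes of the 35 genes, 767 kept their direction and 38, in 18 genes, reversed. With HFD 4 and HFD 8 left out together the reversed values were -0.40 for Hspa1l, -0.18 for Hspa4, -0.0035 for Hspa9, -0.25 for Hsp90aa1, -0.24 for Dnajb1, -0.16 for Ddit3, 0.054 for Atf4, 0.063 for Xbp1, 0.041 for Ern1, 0.094 for Canx, 0.017 for Pdia3, 0.10 for Pdia4, 0.016 for Pdia6, 0.081 for Hyou1 and 0.0039 for Sel1l. With limma-voom they were -0.15 for Hspa1l, -0.094 for Hspa4, -0.052 for Hsp90aa1, -0.089 for Dnajb1, 0.0076 for Hspd1, -0.087 for Ddit3, 0.026 for Canx, 0.054 for Pdia3 and 0.047 for Pdia4. With single libraries left out, the log2 fold change ran from -0.065 to 0.27 for Hspa4, -0.011 to 0.13 for Hspa9, -0.048 to 0.17 for Dnajb1, -0.0095 to 0.19 for Hsf1 and -0.067 to 0.20 for Edem1. The median of the 35 genes was -0.27 to -0.10 with single libraries left out, -0.05 with limma-voom and -0.0053 without HFD 4 and HFD 8. The limma-voom fit gave HFD 4 and HFD 8 the lowest library weights, 0.150 and 0.148, so it is not independent of leaving them out. Without a change of direction, the germ cell forms moved most: with the block the log2 fold change was 0.63 for Hspa2, 0.48 for Hspa1l and 0.71 for Hspa4l, with limma-voom 0.24 for Hspa2 and 0.32 for Hspa4l, and with DESeq2 0.10 for Hspa1l. The cause was not tested. With the replicate number as a block, 0 genes passed, 314 had an unadjusted p under 0.05, the median of the 35 was -0.26 and Edem1 reversed to -0.076. The labels give no pairing by number, and same-numbered libraries' deviations correlated between -0.395 and 0.605, so the block was not used. Low counts limit some genes in both libraries that stand apart, such as Hspa1a with 9 reads in HFD 4 and 7 in HFD 8.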
